A study of Mus musculus with 12 samples.

Results

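The 9 genes described here belong to the renin-angiotensin system and to the peptidases of the renal brush border: Ren1, Agt, Ace, Agtr1a, Enpep, Mme, Mep1a, Mep1b and Anpep. They were chosen by symbol and by function, with earlier results of these data known, and are 9 of the 23420 genes counted. RNA was sequenced from 12 kidneys of young adult male C57BL/6J mice, 4 in each of 3 groups. Whether a control kidney came from the same mouse as an ischemic kidney is not stated in the sources used here. The tests treat the 12 kidneys as independent. The control kidneys were taken as normal tissue at nephrectomy, although their labels carry the same protocol as the others, 20 min of clamping of the renal pedicle. The other 8 kidneys were taken 24 h after 20 min of ischemia, with the mouse either conscious or anaesthetised. For these 8 the titles and the group field contradict each other, so they are called ischemia set A, anaesthetised by title and conscious by group field, and ischemia set B, conscious by title and anaesthetised by group field. In the study's surgical methods the right kidney is excised and the left one clamped.

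The renin-angiotensin system is a protease cascade that regulates blood pressure and sodium balance. Renin, released by juxtaglomerular cells of the kidney, cuts angiotensinogen to angiotensin I, angiotensin-converting enzyme turns this into angiotensin II, and the type 1 receptor carries most of the known actions of angiotensin II in the tubule and vessels. In the proximal tubule, converting enzyme shares the apical microvillar membrane, the brush border, with peptidases that trim angiotensins and other filtered peptides, among them aminopeptidases A and N, neprilysin and the meprins, which are metalloproteinases of secreted and membrane-bound forms.

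Between 15367342 and 44793350 reads were counted per kidney, and values are given as CPM, the counts scaled to the kidney's own total. A count of 3, taken as the detection floor, equalled 0.067 to 0.195 CPM and covers counting error only, because the reads carry no molecular identifiers. Proximal tubule markers were abundant in the control kidneys, with a summed level of 8415 to 9573 CPM over 12 genes, and distal nephron markers were present as well (2879 to 3523 CPM over 6 genes). Replicate 4 of set B had the smallest library and stood apart from the other kidneys on the second principal component of log2 CPM. The results that rest on it are given with and without it. By the study's methods, the middle of a kidney went to histology and the remaining tissue to RNA and protein. Because this RNA mixes all cell types, fewer cells of a type and less RNA per cell cannot be told apart.

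In the control kidneys the 8 genes with reads spanned more than 2 orders of magnitude. On the scale of mean CPM per kilobase of annotated exon, used only for levels between genes, Mep1a stood at 225.6 ± 16.01 (SD, n = 4), Ace at 118.3 ± 10.2 and Mep1b at 51.5 ± 6.12. Mme followed at 13.2 ± 0.650. Anpep (7.84 ± 1.83) and Enpep (6.49 ± 1.30) differed by less than the SD of Anpep, and Agtr1a (3.29 ± 0.576) and Agt (1.11 ± 1.01) were lowest. Ren1 was listed at 0.

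**Figure D1:**
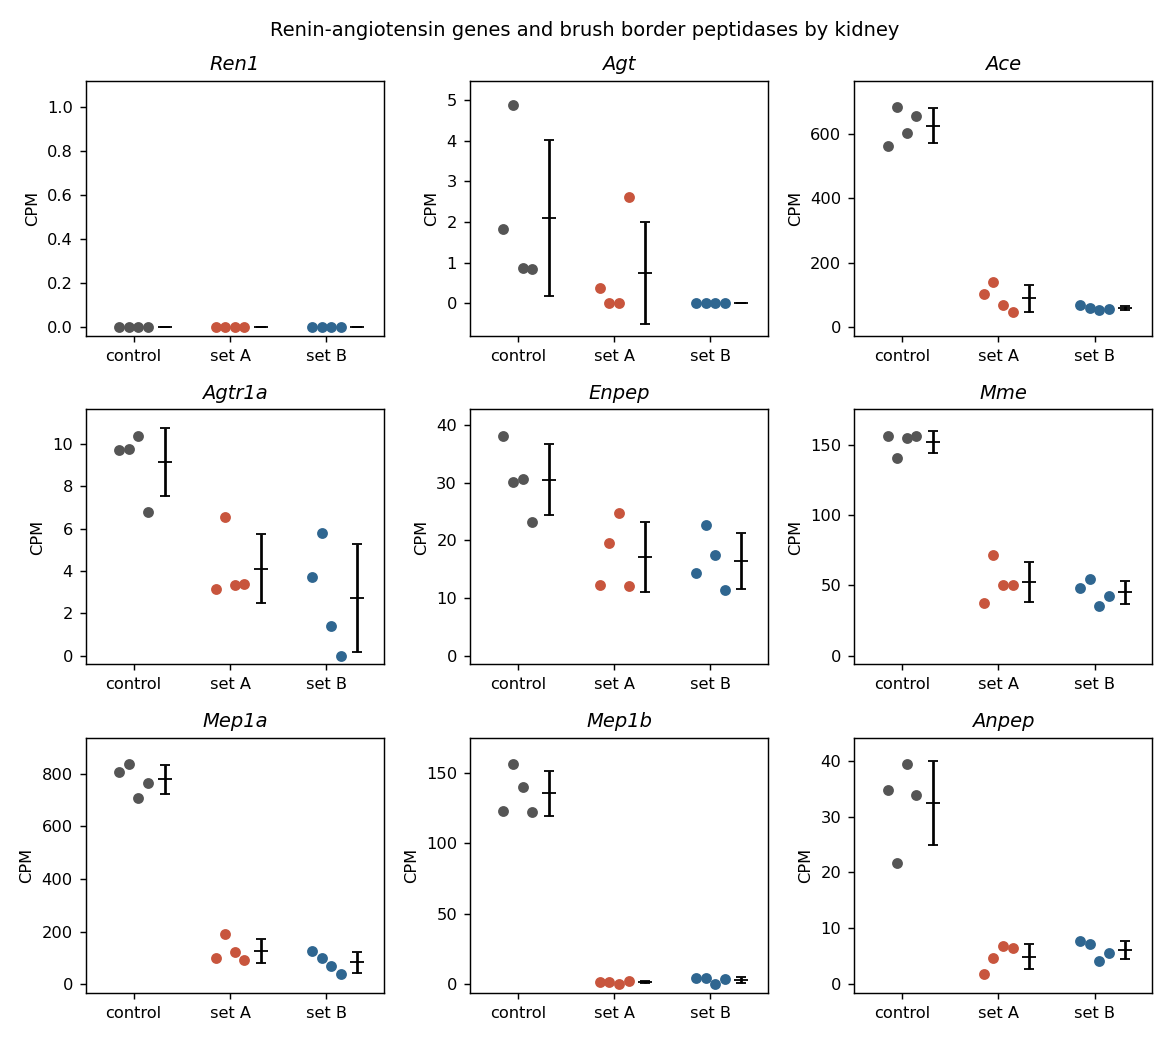
Level of each of the 9 genes in CPM, on a linear axis, in the 4 control kidneys, the 4 kidneys of ischemia set A and the 4 of ischemia set B. Points are kidneys and the bars beside them are the mean ± SD. For Ace, Mme, Mep1a, Mep1b and Anpep all 8 ischemic kidneys sit below every control, Agt and Enpep of set A overlap the controls, and Ren1 is at 0 throughout.

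The windows of 250 bases before the annotated transcription start (RefSeq, GRCm38.p6) were searched on both strands, because most of the 9 genes fell together. RefSeq windows were matched for 7 of the 9 genes, 10 windows in all, since Ace and Mme have more than one start. Agtr1a and Mep1b had no entry. The letters TATAAA, the core of the TATA box that places the start of transcription, occurred in 4 of the 10 windows and in 12.4% of all 32851 windows of this length. They lay at position -29 of Ren1, -30 of Agt, -31 of Ace and -52 of Enpep, counted from the base before the start as -1 to the leftmost base of the match. CAAAGTCCA, a motif of HNF4A, occurred in 0 of the 10 windows and in 0.384% of all. A match describes the letters only, and a window without one says only that these letters are not in it. The windows of 4 genes are shown because they span the responses described next, from the gene with few reads (Agt) through a small fall (Enpep) to falls of several fold (Ace and Mep1a), with the TATAAA match in capitals, which reads TTTATA where it lies on the opposite strand. All are written 5′ to 3′ on the strand of the gene, and Mep1a, which holds neither motif, is in lower case throughout.
Agt, chr8:124569707-124569956, minus strand: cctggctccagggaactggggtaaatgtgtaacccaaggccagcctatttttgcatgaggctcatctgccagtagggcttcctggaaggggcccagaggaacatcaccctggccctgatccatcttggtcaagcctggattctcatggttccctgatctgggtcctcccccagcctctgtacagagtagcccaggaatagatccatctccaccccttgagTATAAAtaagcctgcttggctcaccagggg
Ace, chr11:105967698-105967947, plus strand: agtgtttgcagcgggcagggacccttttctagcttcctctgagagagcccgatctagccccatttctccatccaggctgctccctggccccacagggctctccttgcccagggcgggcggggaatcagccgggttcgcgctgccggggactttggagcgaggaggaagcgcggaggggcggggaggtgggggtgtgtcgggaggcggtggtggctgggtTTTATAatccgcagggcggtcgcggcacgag
Enpep, chr3:129332750-129332999, minus strand: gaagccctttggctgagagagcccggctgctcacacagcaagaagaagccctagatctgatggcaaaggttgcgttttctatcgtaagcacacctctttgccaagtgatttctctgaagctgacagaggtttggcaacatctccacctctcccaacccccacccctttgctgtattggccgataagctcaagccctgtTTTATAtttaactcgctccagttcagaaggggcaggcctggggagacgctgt
Mep1a, chr17:43502774-43503023, minus strand: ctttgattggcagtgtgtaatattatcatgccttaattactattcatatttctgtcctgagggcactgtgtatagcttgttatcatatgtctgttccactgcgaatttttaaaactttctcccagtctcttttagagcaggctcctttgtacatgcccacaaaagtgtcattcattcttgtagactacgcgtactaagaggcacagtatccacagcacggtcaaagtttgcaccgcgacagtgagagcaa

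The window of Ace is that of the longer, somatic form. A second start inside the gene, known as the start of the form made in the testis, has its window at chr11:105974939-105975188 and held neither motif. Counts per gene do not tell the 2 starts apart. HNF4A is a transcription factor of proximal tubule cells, and its gene is named here because its motif was searched, not by the rule for named genes. Hnf4a held 1475 ± 91.1 CPM (SD, n = 4) in control kidneys and fell, to 579.0 ± 137.5 CPM in set A (log2 fold change -1.37 ± 0.22, SE, adjusted p = 0.000109) with 501.3 ± 201.1 CPM for set B (-1.58 ± 0.22, adjusted p = 2.48e-05, edgeR's quasi-likelihood test, Benjamini-Hochberg adjusted).

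The comparison with the control kidneys asks how the transcripts of the angiotensin cascade and its peptidases stand 24 h after ischemia. Of the 9 genes, 8 passed the low-count filter, and all 8 had a log2 fold change below 0 in each set. In set A 5 of the 8 fell, Ace, Mme, Mep1a, Mep1b and Anpep. In set A, 11.7% of the 11664 genes tested were lower at the same threshold and 22.3% differed in either direction (edgeR's quasi-likelihood test, Benjamini-Hochberg adjusted p below 0.05). In set B 7 of the 8 fell, the same 5 with Agt and Enpep, against 11.9% of all genes lower and 22.8% in either direction. The median log2 fold change of the 8 was -2.11 for set A and -2.83 for set B, beside -0.02 over all genes in both. The sets share the same 4 controls, so the 2 comparisons are not independent.

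Agt passed the filter through the controls, with 4 controls, 1 kidney of set A and 0 of set B above its level of 0.401 CPM, so its lower level in set B was fixed by the filter and adds nothing to that count, and in set A it did not pass the test. Without it, 5 of 7 genes fell in set A and 6 of 7 in set B, with medians of -2.65 and -2.42. Every kidney of set A lay below every control for 6 of these 7 genes, all but Enpep, a pattern that 15.2% of all genes tested showed, and every kidney of set B did for all 7, against 14.7% of all genes.

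**Figure D2:**
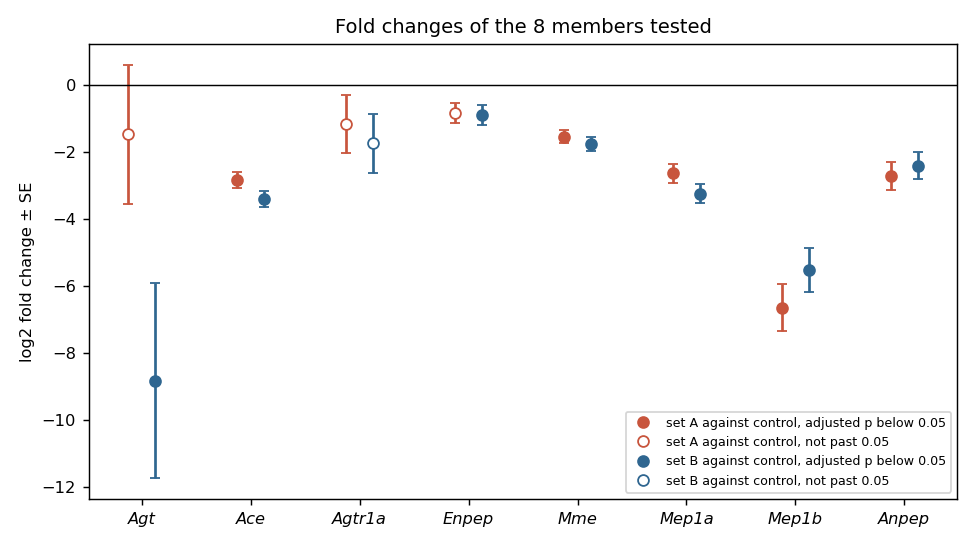
log2 fold change of the 8 genes tested against the same 4 controls, set A in red and set B in blue, with the standard error of the fit as bars. Filled points passed an adjusted p of 0.05 in edgeR's quasi-likelihood test and open points did not. The values run from -0.85 (Enpep, set A) to -8.84 (Agt, set B, a fitted value against 4 kidneys with no count).

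Ren1 (chromosome 1, 133350510 to 133360325, plus strand), which encodes renin, the aspartyl protease that starts the cascade, had no count in any of the 12 kidneys. The same was true of Ren2, the near-identical copy carried by some mouse strains, for which the count table has a row of its own. How the authors' counting treated reads shared by near-identical genes is not given in the sources used here. The alpha-globin genes Hba-a1 and Hba-a2, another such pair, were also at 0 in all kidneys. Among 9 markers of juxtaglomerular and mural cells, Akr1b7, which marks renin cells, had counts in 1 of the 12 kidneys, whereas the summed level of the 9 was 311.6 to 488.6 CPM in the controls. Ren1 is therefore only said to be listed at 0, and no level or fold is given for it. The part of the counting in this was not tested.

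Agt (chromosome 8, 124556534 to 124569706, minus strand) encodes angiotensinogen, the substrate of renin, which liver supplies to plasma and the proximal tubule also makes. Its CPM was 1.82, 4.88, 0.858 and 0.847 in the 4 controls, 0.384, 0, 0 and 2.62 for set A, and 0 in all 4 kidneys of set B. The controls and set B did not overlap, whereas replicate 4 of set A lay above 3 of the 4 controls. With each kidney of set B set to the floor of 3 counts, the mean level of Agt was at least 13.3-fold below the controls. edgeR's quasi-likelihood test gave an adjusted p of 0.0374. Agt passed the low-count filter through the controls, so its lower level in set B was fixed by the filter and this p adds no support. In set A the mean was 2.80-fold lower (log2 fold change -1.49 ± 2.08, adjusted p = 0.735, same test). The call in set B held in 1 of the 8 fits that left out a single kidney, the one without control replicate 3, and was lost without any of the other 7 kidneys, with adjusted p up to 0.0976.

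Ace (chromosome 11, 105967945 to 105989964, plus strand), the peptidase that removes a dipeptide to form angiotensin II and degrades bradykinin, fell in both sets. The controls held 561, 682, 604 and 656 CPM, the kidneys of set A 104, 139, 68.2 and 46.3 CPM, and those of set B 69.99, 60.2, 53.1 and 55.5 CPM. No ischemic kidney came near a control, and the highest of the 8, replicate 2 of set A, held less than the lowest control by several fold. The mean level was 7.01-fold lower in set A (log2 fold change -2.84 ± 0.24, SE, adjusted p = 3.57e-08) and 10.5-fold lower in set B (-3.41 ± 0.25, adjusted p = 4.87e-09), both by edgeR's quasi-likelihood test. The annotation places Gm11651 on the opposite strand within this gene. The libraries were stranded, but the strand setting of the counting is not given in the sources used here, and this holds likewise for the opposite-strand neighbours Gm42628 at Enpep and Gm6378 at Mep1b. At Agtr1a (Gm48161) and Anpep (Gm44974) the overlapping gene lies on the same strand.

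Agtr1a (chromosome 13, 30336441 to 30382867, plus strand), the major type 1 angiotensin II receptor of the mouse kidney, did not pass the test in either set. It held 9.72, 9.76, 10.4 and 6.80 CPM in the controls, 3.16, 6.55, 3.33 and 3.39 CPM in set A and 3.71, 5.77, 1.38 and 0 CPM in set B. All 8 ischemic kidneys lay below the lowest control, although replicate 2 of set A came close to it and replicate 4 of set B had no count. Its log2 fold change was -1.18 ± 0.86 in set A (adjusted p = 0.407) and -1.75 ± 0.88 in set B (adjusted p = 0.175, edgeR's quasi-likelihood test). Leaving out any one kidney gave values from -2.45 to -1.34 in set B, none past the threshold, and the value nearest to 0 was that without replicate 4 of set B. With limma-trend in place of edgeR, Agtr1a was past the threshold in set B (-2.89, adjusted p = 0.0404).

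Enpep (chromosome 3, 129269175 to 129332720, minus strand) encodes aminopeptidase A, which takes the first residue from angiotensin II. The controls held 38.2, 30.2, 30.6 and 23.2 CPM, the kidneys of set A 12.3, 19.6, 24.7 and 12.1 CPM, and those of set B 14.4, 22.7, 17.5 and 11.3 CPM. Replicate 3 of set A exceeded the lowest control, and the highest kidney of set B lay just below it. The mean level was 1.78-fold lower in set A (log2 fold change -0.85 ± 0.31, adjusted p = 0.0534) and 1.86-fold lower in set B (-0.91 ± 0.31, adjusted p = 0.0396, edgeR's quasi-likelihood test). The call in set B was lost without control replicates 1, 2 or 3 or set B replicates 1, 3 or 4 (adjusted p up to 0.116), and in set A the gene passed without replicate 3 (adjusted p = 0.0319).

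Mme (chromosome 3, 63241537 to 63386030, plus strand) encodes neprilysin, an endopeptidase that forms angiotensin-(1-7) and degrades natriuretic peptides and bradykinin. It had the tightest controls, at 156, 141, 155 and 156 CPM, against 37.4, 71.9, 50.2 and 50.2 CPM in set A and 48.4, 54.4, 35.05 and 42.6 CPM in set B. The groups were far apart. Its mean level was 2.90-fold lower in set A (log2 fold change -1.56 ± 0.20, adjusted p = 5.38e-06) and 3.37-fold lower in set B (-1.77 ± 0.20, adjusted p = 1.30e-06, edgeR's quasi-likelihood test). Anpep (chromosome 7, 79821803 to 79861059, minus strand), aminopeptidase N, which acts on angiotensin III among many peptides, held 34.8, 21.7, 39.3 and 33.9 CPM in the controls, 1.79, 4.73, 6.79 and 6.42 CPM in set A and 7.79, 7.14, 4.10 and 5.53 CPM in set B. The highest ischemic kidney, replicate 1 of set B, was well below control replicate 2, the lowest control. Mean levels were 6.57-fold lower in set A (-2.74 ± 0.42, adjusted p = 5.75e-05) and 5.28-fold lower in set B (-2.42 ± 0.41, adjusted p = 0.000194, edgeR's quasi-likelihood test). The 2 aminopeptidases that act one after the other on angiotensin II differed in size of fall, Enpep less than 2-fold and Anpep more than 5-fold, although this difference was not tested.

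Mep1a (chromosome 17, 43474324 to 43502812, minus strand) and Mep1b (chromosome 18, 21061923 to 21100199, plus strand) encode the alpha and beta subunits of the meprins, which cleave extracellular matrix and peptides and of which the alpha subunit stays at the membrane only by pairing with beta. Mep1a held 807, 836, 709 and 764 CPM in the controls, 99.5, 192, 123 and 90.2 CPM in set A and 126, 98.9, 67.7 and 37.0 CPM in set B. Mep1b held 123, 156, 140 and 122 CPM in the controls, 1.57, 1.43, 0.246 and 2.50 CPM in set A and 4.01, 4.35, 0.0494 and 3.32 CPM in set B. Neither gene overlapped between the controls and a set, and Mep1b lay under the floor in replicate 3 of set B, with 1 count. The mean level of Mep1a was 6.17-fold lower in set A (log2 fold change -2.65 ± 0.29, adjusted p = 9.69e-07) and 9.45-fold lower in set B (-3.25 ± 0.30, adjusted p = 1.06e-07). That of Mep1b was 94.2-fold lower in set A (-6.65 ± 0.70, adjusted p = 6.06e-07) and 46.1-fold lower in set B (-5.54 ± 0.66, adjusted p = 2.98e-06, edgeR's quasi-likelihood test for all 4). Mep1b thus retained 1.06% of its control mean in set A and 2.17% in set B, whereas Mep1a retained 16.2% and 10.6%.

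The ratio of Mep1a to Mep1b within a kidney, which needs no scaling between libraries, was compared by two-sided exact permutation tests of log2 ratios of counts with 0.5 added. The smallest p for 4 kidneys against 4 is 0.0286, and p-values were adjusted over the 6 ratio comparisons computed. There were 5.06 to 6.56 counts of Mep1a for each count of Mep1b in the controls, 35.7 to 478.8 for set A and 11.04 to 915.0 for set B, with no overlap between controls and either set. The log2 ratio was 2.53 ± 0.18 (SD, n = 4) in the controls, 6.77 ± 1.62 for set A and 5.69 ± 2.83 for set B. The differences of 4.24 and 3.16, or 18.9-fold and 8.95-fold, each gave an exact permutation p of 0.0286, the smallest possible, and an adjusted p of 0.0571, which misses the threshold. Without replicate 3 of set B, which had the single count of Mep1b, the difference in set B was 1.78.

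**Figure D3:**
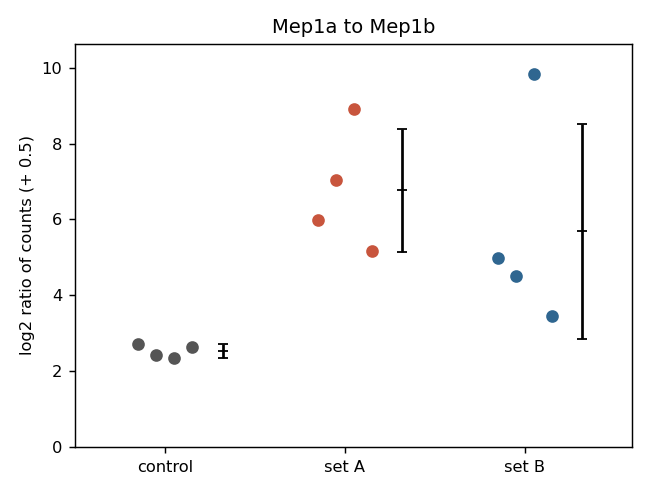
log2 ratio of counts of Mep1a to Mep1b, with 0.5 added, in each kidney, with mean ± SD beside the points. The control kidneys are tightly grouped, the ratio lies higher in all 8 ischemic kidneys, and replicate 3 of set B stands highest at 9.84.

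Other genes of the cascade were called about as often as all genes tested. Of 23 other renin-angiotensin and kinin genes, 8 had no count in any kidney, among them Agtr1b, Agtr2 and Mas1, which encode the other angiotensin receptors. Of the 15 tested, 3 fell and 1 rose in set A and 2 fell and 1 rose in set B, with medians of -0.48 and 0.12, beside the 22.3% and 22.8% of all genes called in either direction. Without 2 genes that passed the low-count filter through the controls, 3 of 13 fell in set A and 2 of 13 in set B. The medians of the 13 were -0.24 and 0.14. Ctsa, a lysosomal carboxypeptidase that can act on angiotensin I, fell by 1.21 ± 0.12 and 1.03 ± 0.12 on the log2 scale in sets A and B (adjusted p = 2.36e-07 and 1.72e-06, edgeR's quasi-likelihood test). Prep, prolyl endopeptidase, rose in both sets, with log2 fold changes of 0.76 ± 0.21 and 0.86 ± 0.21 (adjusted p = 0.0116 and 0.00501 in the same test). Atp6ap2, the prorenin receptor and a subunit of the vacuolar proton pump, was lower in set A (1.47-fold, adjusted p = 0.00884) and had an adjusted p of 0.0593 in set B, where its mean was 1.31-fold lower.

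Most genes of a further list of peptidases and hydrolases fell too. Not all of them encode enzymes of the brush border membrane. Of 16 listed, 15 were tested, 12 fell in each set and 0 rose in either, with medians of -2.19 and -1.90, beside 11.7% and 11.9% of all genes tested that were lower. The largest falls were in Xpnpep2, aminopeptidase P, which had 9.73 ± 5.13 CPM (SD, n = 4) in the controls and no count in set B, at least 61.8-fold lower against the floor and 77.5-fold lower in set A. Acy3 and Pm20d1, which act on acylated amino acids, had log2 fold changes of -3.96 ± 0.52 and -3.23 ± 0.92 in set A and -3.98 ± 0.52 and -4.09 ± 0.97 in set B (adjusted p between 9.85e-06 and 0.0149, edgeR's quasi-likelihood test). Pm20d1 had no count in 2 kidneys of set B. Dpep1, a membrane dipeptidase, had 5.94 ± 3.84 CPM (SD, n = 4) in the controls and no count in 2 kidneys of set A and 3 of set B, where the other kidney had 14 counts. It and Xpnpep2 passed the filter on low counts through the controls, and without them 11 of 13 genes fell in set A and 10 of 13 in set B, with medians of -1.85 and -1.44.

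Of 10 genes of the microvillar scaffold tested, 5 fell and 1 rose in each set, with medians of -0.76 and -0.93, beside the 22.3% and 22.8% of all genes that differed in either direction. Pdzk1, a scaffold of apical transporters, fell by 3.18 ± 0.28 and 2.28 ± 0.27 on the log2 scale. Falls of Slc9a3r1, the scaffold NHERF1, and of Eps8, an actin-capping protein of microvilli, were smaller, at 0.89 ± 0.20 and 0.86 ± 0.24 in set A and 0.95 ± 0.20 and 1.0 ± 0.24 in set B. Ezr, which encodes ezrin, the linker of the microvillar membrane to actin, rose in both sets (1.10 ± 0.12 and 1.14 ± 0.12, adjusted p = 1.14e-06 and 8.15e-07, edgeR's quasi-likelihood test).

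**Figure D4:**
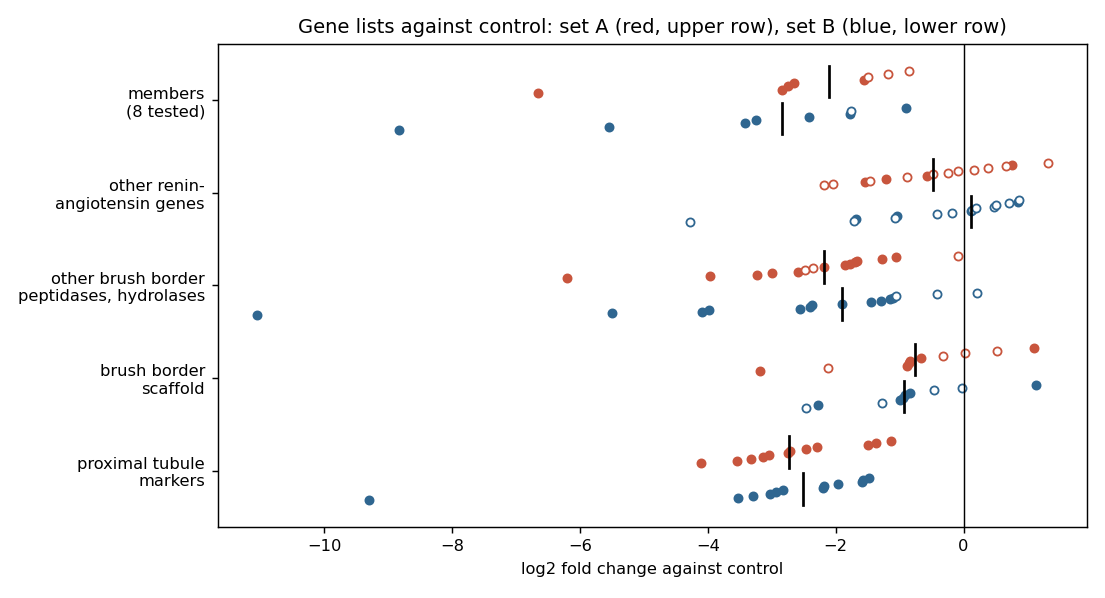
log2 fold change against control of each gene tested in 5 lists, set A in the upper and set B in the lower row of a list. Filled points passed an adjusted p of 0.05 in edgeR's quasi-likelihood test, open points did not, and the vertical bar is the list's median. Proximal tubule markers and the list labelled other brush border peptidases, hydrolases lie almost wholly left of 0. Not all genes of that list encode brush border enzymes. Other renin-angiotensin genes lie on both sides.

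All 12 proximal tubule markers fell in both sets, against 11.7% and 11.9% of all genes, with medians of -2.73 and -2.51, and their summed level was 8415 to 9573 CPM in control kidneys, 1369 to 2265 CPM in those of set A and 778 to 2289 CPM in those of set B (edgeR's quasi-likelihood test). One of them, Slc7a13, an amino acid transporter, passed the filter on low counts through the controls, with 9.88 ± 2.42 CPM (SD, n = 4) there and a single count in all of set B, and the other 11 fell in both sets with medians of -2.71 and -2.20. The summed level of the 9 members, led by Mep1a and Ace, was 1688 to 1881 CPM, 213.7 to 435.3 CPM and 155.3 to 274.4 CPM in the same order. Of 6 distal nephron markers 3 fell in set A against 2 in set B, and their sum was 1174 to 1745 CPM and 1045 to 2115 CPM. Of 8 juxtaglomerular and mural markers tested, 0 fell and 2 rose in each set, Acta2 and Tagln, both genes of contractile cells, and the summed level of the list was 605.4 to 1550 CPM for set A and 663.5 to 1092 CPM for set B. Endothelial markers were lower in 0 of 7 in set A and in 1 of 7, Tek, in set B. Leukocyte markers fell in 2 of 5 tested in each set, Csf1r (-1.94 and -2.30) and Cd3e, which had no count after ischemia and passed the filter through the controls. Without Cd3e it was 1 of 4 in each set, with medians of 0.87 and -0.42. Their sum was 45.4 to 64.9 CPM in control kidneys, 12.3 to 30.3 CPM for set A and 6.31 to 35.2 CPM for set B. Of the 2 red cell markers tested, Beta-s fell in both sets, while Alas2 passed the filter through the controls and had no count in set B. Hba-a1 and Hba-a2 were at 0 throughout. The red cell markers summed to 58.2 to 118.8 CPM, 25.2 to 48.8 CPM and 14.5 to 31.5 CPM in the same order. All 5 tubular injury markers rose in both sets (median log2 fold changes 9.39 and 8.87). The part of cell composition in the falls of the members was not tested.

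Ischemia under the 2 conditions was compared directly, although the contradicting labels do not tell which set is which. None of the 8 genes differed between set B and set A, with adjusted p of at least 0.930, and 1 of the 11664 genes tested (0.00857%) did (edgeR's quasi-likelihood test, Benjamini-Hochberg adjusted). That gene, chosen for naming after its values were seen, was Slc5a12, a lactate transporter of the proximal tubule, with 135.5 ± 17.8 CPM in the controls, 13.7 ± 3.34 CPM for set A and 49.2 ± 23.4 CPM for set B (SD, n = 4 each; edgeR's adjusted p = 0.0328 between the sets). At an unadjusted p below 0.05 stood 3 of the 8, Agt, Ace and Mep1a, and 587 of all genes, and limma-trend and DESeq2 each called 0 of the 8. All 3 were lower in set B. The difference was -0.57 for Ace (95% interval -1.05 to -0.10, log2 scale) and -0.60 for Mep1a (-1.17 to -0.03), and Agt, without a count in set B, has no fold here. Without replicate 2 of set A these differences were -0.28 for Ace and -0.33 for Mep1a, and without replicate 4 of set B that of Mep1a was -0.35. For Mep1b it was 1.11 in the other direction (-0.19 to 2.41), for Mme -0.21 (-0.61 to 0.19), for Anpep 0.32 (-0.51 to 1.16), for Enpep -0.05 (-0.70 to 0.59) and for Agtr1a -0.57 (-2.36 to 1.22). Taking both sets together against control, 7 of the 8 fell, all but Agtr1a (-1.47, adjusted p = 0.144), beside 14.2% of all genes lower and 26.4% in either direction. Without Agt it was 6 of 7, and Agt itself lost the call in 11 of 12 fits that left out a kidney and with the sets pooled into 1 group (adjusted p = 0.384, edgeR's quasi-likelihood test). All 8 ischemic kidneys lay below every control for 11.3% of all genes tested.

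Across the 12 kidneys Ace, Mme and Mep1a followed one another closely in log2 CPM, and Enpep followed them less closely. Pearson's r was 0.96 between Ace and Mep1a, 0.95 between Ace and Mme and 0.96 between Mme and Mep1a, and 0.45 between Agtr1a and Mep1b. It was 0.75 between Enpep and Ace, 0.80 between Enpep and Mme and 0.82 between Enpep and Mep1a. These values carry the difference between control and ischemic kidneys. After the group means were subtracted, the first 4 pairs stood at 0.54, 0.31, 0.59 and 0.02 (0.70, 0.31, 0.78 and 0.74 without replicate 4 of set B), while Agtr1a and Mep1a stood at 0.86, over 12 kidneys that share libraries between genes. Replicate 4 of set B, with no count of Agtr1a, moved the pairs with that gene. Without it, an alternative added after seeing the data, r over 11 kidneys between Agtr1a and Mep1b was 0.88 in log2 CPM, while Agtr1a and Mep1a stood at 0.73 with group means subtracted. The genes whose log2 CPM was most like that of Mep1a were Ghr, the growth hormone receptor (r = 0.987), Lrp2, the endocytic receptor megalin (0.985), and Sap30 (0.985). For Ace they were Lpl, lipoprotein lipase (0.989), Tmem59 and Skp1a (both 0.985), and those most like Agtr1a included Slc22a12, a urate transporter (0.963), and Acp5 (0.960), at 0.834 and 0.768 without that kidney. With group means subtracted, Ghr was again among the 3 genes most like Mep1a (0.950, and 0.887 without that kidney).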

How the data were processed

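Total RNA of 12 kidneys was made into stranded mRNA libraries, and the authors sequenced them as single reads, used STAR to map them to mm10 and HTSeq for the counting per gene. The deposited values are raw read counts, not normalized, for 23420 genes, and 9207 of these were 0 in all kidneys. The versions of STAR and HTSeq and the annotation release are not given in the sources used here. The ages of the mice are not in the labels.

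Counts were analysed in R 4.3.3 with edgeR 4.0.16, which the authors also used. The low-count filter (minimum count 10, minimum total 15) kept 11664 genes, libraries were scaled by TMM (factors 0.968 to 1.03), and 1 model with 3 groups was fitted to all 12 kidneys. Quasi-likelihood F-tests, two-sided, were adjusted by Benjamini-Hochberg across the 11664 genes, and an adjusted p below 0.05 was called. CPM values use the counted totals, without TMM. Log2 CPM for correlations had a prior count of 2. The procedure was tested on simulated counts. No replicates agreed within sampling noise (chi-square per degree of freedom at least 48.9 in 18 pairs). Gene positions and exon lengths came from GENCODE M21 (mm10), promoter windows from RefSeq (GRCm38.p6). Python 3.11.15, pandas 2.3.3, SciPy 1.17.1 and matplotlib 3.10.9 served for the rest.

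The members and lists were chosen with earlier results of these data known. Named were all 9 members and Atp6ap2, and in each supporting list at most 4 genes called in a set, those with the largest mean log2 fold change. For likeness the 3 genes with the highest Pearson's r were named. Alternatives were DESeq2 1.42.0, limma-trend (limma 3.58.1), RLE size factors, no filter, more than 1 CPM in at least 4 kidneys, only the groups compared, both sets pooled, the replicate number as a block, a pseudocount of 2 in ratios, and leaving out each kidney. Some results, a further ratio among them, are not reported here.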

Additional observations from a re-analysis of the deposited data

Results flagged for a closer look

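Among 36 groups of 4 kidneys checked, 4 held a kidney set apart from the other 3 by a gap that is large against the group's whole range, by Dixon's 95% critical value. Chance flags about 1 in 20 groups. Replicate 4 of set A held 2.62 CPM of Agt, with the next kidney at 0.384. Replicate 2 of set A held 6.55 CPM of Agtr1a, with the next at 3.39. Control replicate 2 held 140.9 CPM of Mme, with the next at 154.7, and 224.8 CPM of Atp6ap2, with the next at 182.7.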

How the results depend on the processing

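The falls of Ace, Mme, Mep1a, Mep1b and Anpep in each set passed the threshold under every alternative run, including each kidney left out. Of 389 single-gene values against control, 355 kept their call, 28 lost it, 6 gained it and 0 reversed. The losses were in Agt and Enpep. Agt against control lost its call in 7 of 8 fits without a kidney in set B and, for both sets together, in 11 of 12 and with the sets pooled (-2.48, adjusted p = 0.384). Enpep in set A passed with DESeq2, limma-trend and only the groups compared, and Agtr1a in set B passed with limma-trend (-2.89, adjusted p = 0.0404). The difference of Enpep between the sets ran from -0.26 to 0.16 with 1 kidney left out. With 1 kidney left out, the difference in log2 ratio of Mep1a to Mep1b in set A against control ran from 3.53 to 4.78, past the threshold without replicate 1 of set A (adjusted p = 0.0429). Leaving out replicate 4 of set B was an alternative added after seeing the data. In it, 11 of 15 genes in the further list of peptidases and hydrolases fell in set B. Of the other renin-angiotensin genes 1 of 15 fell, beside 10.9% of all genes. The replicate numbers are shared between groups. The values showed no pairing by number, since same-numbered kidneys correlated between -0.06 and 0.05 and 2 of 12 kidneys correlated best with their own number. With the number as a replicate block, 6 members fell in set A, 6 in set B and 6 in both together, beside 11.4%, 11.6% and 14.1% of all genes lower in that fit, and 0 differed between the sets. Agt was not tested under the filter of 1 CPM or, between the sets, in the fit of only the groups compared. Causes of these changes were not tested. Agt, Agtr1a and Mep1b after ischemia are limited by depth, with 0 to 151 counts per kidney.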
